A study of Mus musculus with 16 samples.

Results

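The 41 genes described here encode the machinery that copies DNA and the enzymes that make its building blocks. They are 5 origin licensing genes (Orc1, Orc2, Orc6, Cdc6 and Cdt1), 12 genes of the replicative helicase and its activation (Mcm2 to Mcm7, Mcm10, Cdc45 and Gins1 to Gins4), 4 genes of DNA polymerase alpha and primase, 5 genes of DNA polymerases delta and epsilon, 6 genes of the sliding clamp and its loader, 3 genes of the single-strand binding protein RPA, 2 genes that finish Okazaki fragments, and 4 nucleotide synthesis genes. They were chosen by gene name, and all 41 were found among the 43432 gene rows of the RNA table. All 41 also passed the filter on low values, which left 13091 genes to test.

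RNA and Ago2-bound RNA were measured in B cells from the spleen of mice of the strain given as C57B6L/J. The KO mice lack miR-221 and miR-222, and the Flox mice, whose columns the RNA table names WT, are the controls. All cells were grown in 96-well plates for 4 days under stimulation by anti-CD40 at 500 ng/ml together with the cytokines IL-4 at 25 ng/ml and IL-21 at 10 ng/ml, which the controls received too. The 16 samples are 4 KO and 4 Flox RNA-seq libraries and 4 KO and 4 Flox Ago2 HITS-CLIP libraries. The labels give neither the age of the mice nor the promoter that drives any Cre recombinase, and they do not say whether the replicates came from separate mice, so the tests measure only the spread between these libraries.

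Before a cell divides, the origin recognition complex, Cdc6 and Cdt1 load the ring of Mcm proteins onto replication origins, and Cdc45 and the GINS complex then turn that ring into the active helicase. Primase starts each new strand, polymerase epsilon extends the leading strand and polymerase delta the lagging strand, both held to DNA by the clamp PCNA. A resting B cell is out of the cell cycle and shuts most of these genes down, while signals through CD40 and interleukin receptors bring it into division, with transcription factors of the E2F family as the known activators of many of these genes. The miRNAs absent in the KO mice come from 1 locus on chromosome X and share their seed, the bases 2 to 8 that pair with target RNAs. The mature sequences from RefSeq (GRCm38.p6) are given here with the seed in capitals, because that seed defines which RNAs the deleted miRNAs can pair with.
miR-221-3p: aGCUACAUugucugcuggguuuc
miR-222-3p: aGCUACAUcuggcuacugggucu

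Reads counted in genes, recovered from the deposited normalized values, ranged over 22947689 to 39236132 for KO and 25421025 to 39616596 for Flox. The hairpin genes of the deleted miRNAs could not check the labels, since Mir221 was at 0 reads throughout the KO group and at 0, 0, 3 and 1 reads in the Flox libraries, and Mir222 at 0 in all 8. The largest axis of variation between libraries (33.5% of the variance) placed KO 1 at -38.0 and KO 3 at -35.6, away from KO 2 at -15.3, KO 4 at 7.47 and all 4 Flox libraries between 14.5 and 26.5. Mitochondrial reads made up 3.14% in KO 1 and 4.27% in KO 3, against 1.80% to 2.24% in the other 6 libraries. All 8 B cell markers were tested, with summed levels of 394896 to 480552 normalized counts in KO and 369851 to 457799 in Flox. The 5 plasma cell markers summed to 50813 to 63720.4 in KO and 52053 to 61409 in Flox. Summed levels were 1587 to 1944 (KO) and 1416 to 1625 (Flox) for 7 T cell markers, nearly all of it Lck with the CD3 genes near 0, 348 to 534 and 323 to 461 for 7 myeloid markers with S100a8 and S100a9 at 0, 158 to 206 and 93.9 to 139 for 4 NK markers with Ncr1 at 0, and 5.3 to 22.2 and 19.5 to 29.9 for 5 erythroid markers with Hbb-bs, Hba-a1 and Alas2 at 0.

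All 41 replication genes were expressed in every library, with at least 252 reads for each gene in each, and none passed the test of a difference between the genotypes. Together they took 0.667%, 0.729%, 0.669% and 0.690% of the reads of the KO libraries 1 to 4, compared with 0.742%, 0.711%, 0.683% and 0.681% for Flox, with the lowest share in KO 1, the highest in Flox 1, and overlapping ranges between. No member passed the test between genotypes at an adjusted p of 0.05 (limma, Benjamini-Hochberg over all 13091 genes), where 9 of all tested genes (0.0687%) did. At an unadjusted p under 0.05, 2 of the 41 stood out, Pole with the higher mean in KO and Rfc4 with the lower, against 15.1% of all tested genes (7.74% higher and 7.39% lower in KO). In none of the 41 did the 4 KO values lie wholly above or wholly below the 4 Flox values, against 7.97% of all tested genes (4.18% above and 3.79% below). The log2 differences were positive in 21 members and negative in 20, where 48.5% of all tested genes were positive, and their median was 0.00042 beside -0.0078 for all tested genes. The split between the signs moved with the setting and the libraries: 18 members were positive with TMM scaling (46.2% of all genes), 29 without KO 1 and KO 3 (50.5%), 25 without Flox 1 (49.0%) and 16 without Flox 3 (48.1%).

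The intervals give a range for each difference, taken 1 gene at a time and from the spread between these libraries only. The differences ran from -0.50 (Rpa3) to 0.28 (Pole) on the log2(normalized count + 1) scale, with a median standard error of 0.097, and the limma adjusted p-values ran from 0.258 to 0.999. For 37 of the 41 members the whole 95% interval of the difference lay within 1.5-fold in either direction, which held for 62.9% of all tested genes. The 4 members whose intervals reached past 1.5-fold were Rfc4, Rpa2, Rpa3 and Tk1. On whole reads recovered from the deposited values, edgeR called 0 members and 9 genes in all (0.0687%), and DESeq2 0 members and 213 genes (1.76%). At an unadjusted p under 0.05 each of these tests counted 2 members, against 15.0% of all genes by edgeR and 15.9% by DESeq2. The authors' deposited table holds 191 genes at an FDR under 0.05 (1.58%), none of them a member, and its lowest member FDR is 0.178, for Rfc4. In RNA from whole cultures, a change in the share of dividing cells and a change in RNA of these genes per cell could not be told apart.

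**Figure D1:**
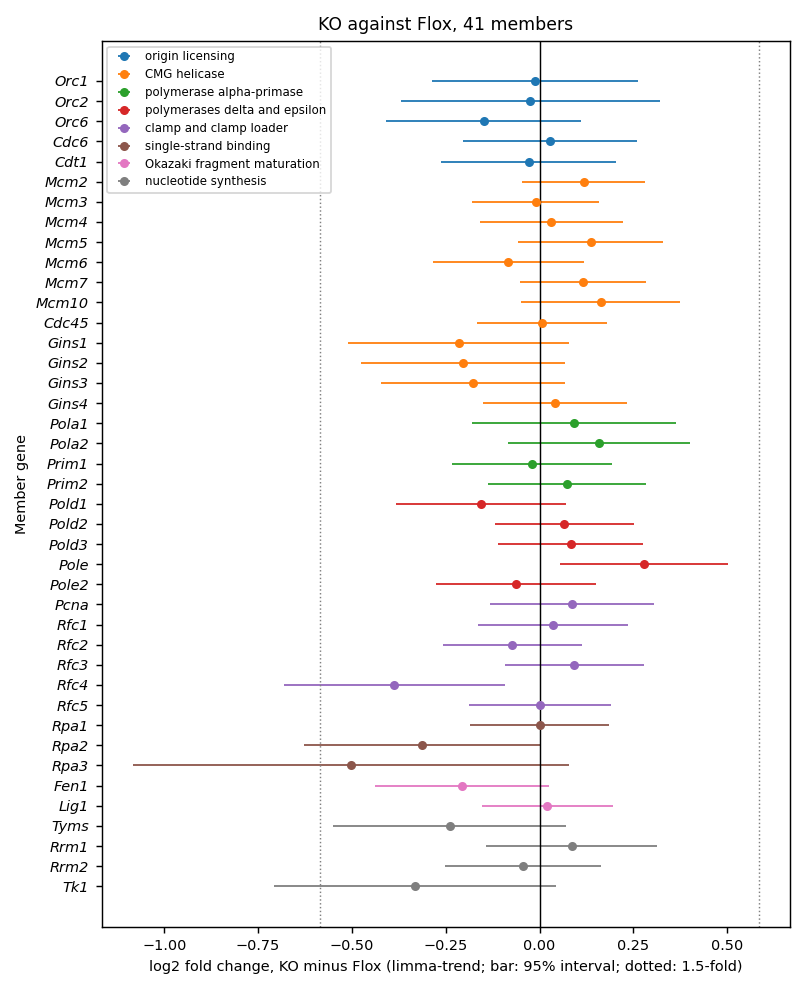
Log2 difference between KO and Flox (x axis, log2 of the normalized count + 1) for each of the 41 replication genes (y axis), with points for the limma estimate, bars for its 95% interval and dotted lines at 1.5-fold. Most intervals cross 0, the exceptions being Pole and Rfc4, and 37 of 41 stay between the dotted lines.

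The values by library show where the spread lies. Relative to each gene's mean over the 8 libraries, the median log2 deviation of the members was -0.04, 0.10, -0.09 and -0.01 for KO 1 to 4, compared with 0.10, -0.0019, -0.06 and -0.05 for Flox, so KO 2 and Flox 1 were the high libraries. KO 3 held the lowest value of the 8 for 16 members but also the highest for 8, while Flox 1 held the highest for 11 and KO 2 for 10. Between libraries the members moved together only loosely. Of their 820 pairs, 64.8% had a positive correlation over the 8 libraries, with a median r of 0.23. The extremes were r = 0.97 for Rpa2 with Fen1 and r = -0.97 for Mcm6 with Pold2, and each r rests on 8 points of mixed genotype that share library depth and composition.

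**Figure D2:**
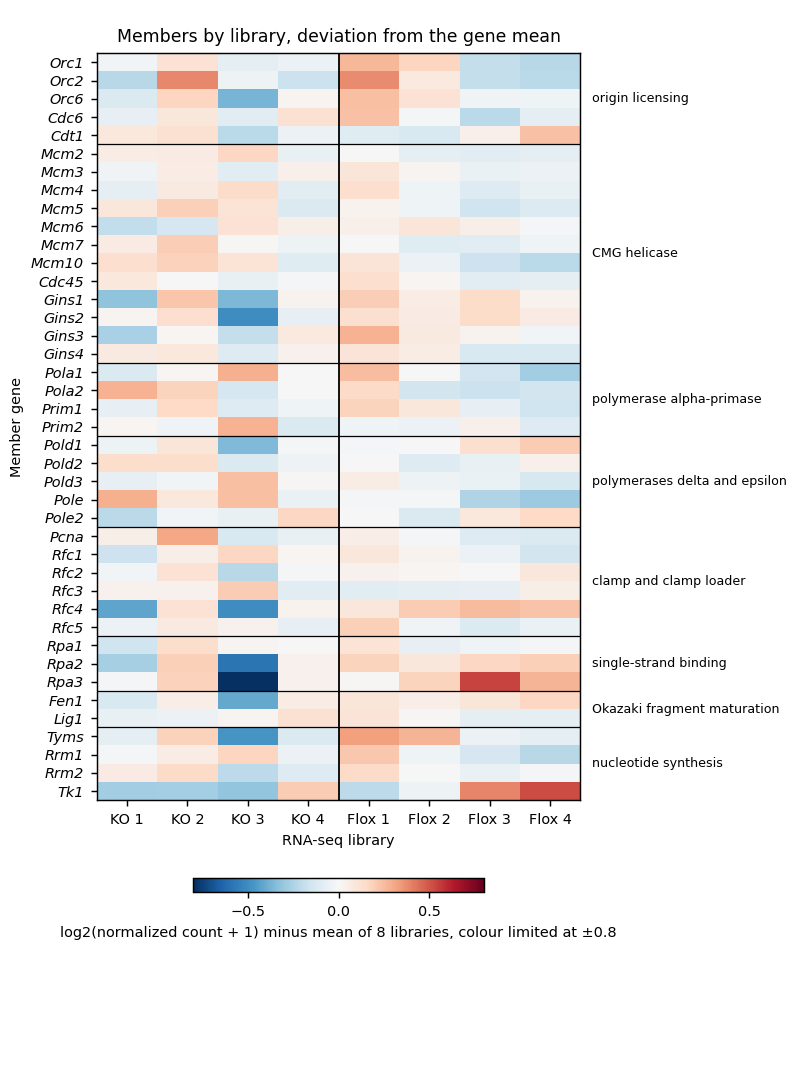
Deviation of log2(normalized count + 1) from the gene's mean over 8 libraries (colour, limited at ±0.8) for the 41 members (rows, grouped by role) in KO 1 to 4 and Flox 1 to 4 (columns). The darkest cell is Rpa3 in KO 3, and neither genotype forms a block of a single colour within any role.

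Among the origin licensing genes, 4 of 5 had a negative and 1 a positive difference, and their median was -0.02. Orc6, a subunit of the origin recognition complex, was at 2501, 3062, 2095 and 2749.7 normalized counts in the KO libraries (1 to 4) and at 3205, 2941, 2666 and 2649 in Flox. KO 3 was the lowest and Flox 1 the highest library, the groups overlapped, and the log2 difference was -0.15 (SE 0.12), limma adjusted p 0.543. It was -0.05 without KO 3 and 0.02 without KO 1 and KO 3. Over 20 settings, the main test and the 19 alternatives described at the end, it ran from -0.23 to 0.02. Cdt1, which brings the Mcm ring to origins, was at 2363, 2424, 1925 and 2159 normalized counts in the KO libraries (1 to 4) and at 2087, 2049, 2298 and 2625 in Flox. Flox 4 was highest and KO 3 lowest, with a difference of -0.03. The span of Cdt1 lies wholly inside that of Gm20388 on the same strand, so its counts depend on how reads shared by both were assigned, which the labels do not give. The other 3, the complex subunits Orc1 and Orc2 and the loading factor Cdc6, differed by -0.01, -0.02 and 0.03.

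Of the helicase genes, which unwind the DNA, 7 of 12 had positive differences, and the median was 0.02. Mcm2, 1 of the 6 ring subunits, was at 6797, 6836, 7305 and 6260.3 normalized counts in the KO libraries (1 to 4) and at 6543, 6182, 6158 and 6167 in Flox. KO 1, KO 2 and KO 3 were above all 4 Flox libraries and KO 4 fell among them, for a log2 difference of 0.12 (SE 0.07) and a limma adjusted p of 0.449, or 0.06 without KO 1 and KO 3. Under the 20 settings Mcm2 ranged from 0.06 to 0.19. Mcm7, another ring subunit, was at 7516, 8214, 7234 and 6994 normalized counts in the KO libraries (1 to 4) and at 7154, 6713, 6731 and 7003 in Flox. Here too 3 KO libraries, KO 1 to 3, lay above the Flox values, with KO 4 inside their range and a difference of 0.12 (SE 0.08). Mcm10, which helps activate the loaded helicase, was at 2798, 2900.3, 2752 and 2382 normalized counts in the KO libraries (1 to 4) and at 2738, 2468, 2279.9 and 2199 in Flox. Its KO 1, KO 2 and KO 3 values exceeded every Flox value, and the difference was 0.16 (SE 0.10), limma adjusted p 0.415. The remaining ring genes Mcm3, Mcm4, Mcm5 and Mcm6 differed by -0.01, 0.03, 0.14 and -0.08, and Cdc45 by 0.0061.

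In the GINS complex, which binds Cdc45 and the ring, 3 of 4 subunits had negative differences. Gins2 was at 2022, 2195, 1412 and 1909 normalized counts in the KO libraries (1 to 4) and at 2183, 2085, 2213 and 2088 in Flox. KO 3 stood below the other 7 libraries and KO 2 within the Flox range, and the log2 difference was -0.20 (SE 0.12, limma adjusted p 0.427), or -0.07 without KO 3. Its range over the 20 settings was -0.28 to -0.07. Gins1 and Gins3 differed by -0.22 and -0.18, and Gins4 by 0.04. With KO 1 and KO 3 left out, the first 3 came to 0.02 (Gins1), -0.07 (Gins2) and -0.04 (Gins3). On the opposite strand Gins2 is covered over its whole span, 10672 nt, by Gm20388 and over 2758 nt by Gse1, and whether the counts used strand is not given.

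The polymerase alpha and primase genes, which lay down the RNA-DNA primers, had 3 of 4 positive differences and a median of 0.08. Pola2, the regulatory subunit of polymerase alpha, was at 3658, 3413, 2746 and 3019.5 normalized counts in the KO libraries (1 to 4) and at 3353, 2724, 2677 and 2724 in Flox. KO 1 was the highest library, Flox 1 lay far above the other 3 Flox libraries, and the difference was 0.16 (SE 0.11, limma adjusted p 0.484), or 0.09 without KO 1. Across the 20 settings Pola2 ranged from 0.09 to 0.24. Prim2, the large primase subunit, was at 1860.3, 1802, 2228 and 1696 normalized counts in the KO libraries (1 to 4) and at 1793, 1777, 1896 and 1711 in Flox. KO 3 alone exceeded the other 7 by a wide margin, and the difference was 0.07, or -0.0064 without KO 3. The catalytic subunits Pola1 and Prim1 differed by 0.09 and -0.02.

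Pole, the catalytic subunit of the leading-strand polymerase epsilon, had the largest positive difference of the 41. It lies at chr5:110286306-110337474 on the plus strand (ENSMUSG00000007080) and was at 4561, 3972, 4442 and 3621 normalized counts in the KO libraries (1 to 4) and at 3734, 3704, 3178 and 3062 in Flox. KO 1, KO 2 and KO 3 were above all Flox libraries while KO 4 lay below Flox 1 and Flox 2, and the means were 4149 ± 434 in KO and 3419.7 ± 349 in Flox (SD, n = 4). The log2 difference was 0.28 (SE 0.10, 95% interval 0.05 to 0.50), with a limma adjusted p of 0.271, and it was 0.16 without KO 1 and KO 3. Across the 20 settings it ran from 0.16 to 0.34. In the authors' deposited table Pole has a log2 fold change of 0.28 and an FDR of 0.197.

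Pold1, the catalytic subunit of polymerase delta, had a negative difference. It was at 4519, 4984, 3649 and 4605 normalized counts in the KO libraries (1 to 4) and at 4625, 4640.2, 5077 and 5352 in Flox. KO 3 was the lowest library and Flox 4 the highest, with KO 2 inside the Flox range, and the difference was -0.16 (SE 0.10, limma adjusted p 0.465). It was -0.06 without KO 3 and -0.04 without KO 1 and KO 3, with a range of -0.21 to -0.04 over the 20 settings. The accessory subunits Pold2, Pold3 and Pole2 differed by 0.07, 0.08 and -0.06.

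In the clamp and its loader 4 of 6 differences were positive, and the median was 0.02. Pcna, the ring that tethers the polymerases, was at 7053, 8458, 6288 and 6573 normalized counts in the KO libraries (1 to 4) and at 7097, 6795, 6367 and 6314 in Flox. KO 2 was far the highest library, the other KO values were close to the Flox values, and the difference was 0.09 (SE 0.10, limma adjusted p 0.679), or -0.0011 without KO 2. Rfc3, a small subunit of the clamp loader RFC, was at 2207, 2210.4, 2489 and 2036 normalized counts in the KO libraries (1 to 4) and at 2025, 2049, 2062 and 2235 in Flox. KO 3 was highest and the other libraries of both groups overlapped, with a difference of 0.09, or 0.04 without KO 3.

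Rfc4, another small subunit of the loader, had the lowest adjusted p of the 41. The gene lies at chr16:23113943-23127737 on the minus strand (ENSMUSG00000022881) and was at 1903, 2754, 1803 and 2598 normalized counts in the KO libraries (1 to 4) and at 2709, 2934, 3035 and 2976 in Flox. KO 1 and KO 3 were far below the other 6 libraries, KO 4 was just below Flox 1, and KO 2 lay inside the Flox range. The means were 2264 ± 481 in KO and 2913 ± 143 in Flox (SD, n = 4), for a log2 difference of -0.39 (SE 0.13, 95% interval -0.68 to -0.09) and a limma adjusted p of 0.258. Without KO 1 and KO 3, its lowest libraries, only KO 2 and KO 4 were left against Flox, and the difference was -0.12. Across the 20 settings it ran from -0.49 to -0.12. The other loader subunits Rfc1, Rfc2 and Rfc5 differed by 0.04, -0.07 and 0.0012, so Rfc4 was the only subunit of the loader whose interval left out 0. Rfc4 overlaps Eif4a2 on the opposite strand over 194 nt.

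RPA, the trimer that coats single-stranded DNA, had the lowest median of the 8 roles, -0.31, carried by its 2 smaller subunits. Rpa2, the middle subunit at chr4:132768332-132778752 (ENSMUSG00000028884), was at 3286, 4519.9, 2634 and 4053 normalized counts in the KO libraries (1 to 4) and at 4480.1, 4209, 4443 and 4511 in Flox. As for Rfc4, KO 1 and KO 3 were low, KO 2 was above every Flox library and KO 4 below them, and the means were 3623 ± 833 in KO and 4411 ± 137 in Flox (SD, n = 4). The difference was -0.31 (SE 0.14, 95% interval -0.63 to 0.0013), with a limma adjusted p of 0.331. Rpa3, the small subunit at chr6:8255936-8259173 (ENSMUSG00000012483), was at 674, 771, 291 and 697 normalized counts in the KO libraries (1 to 4) and at 685, 769.6, 987 and 820.3 in Flox. KO 3 was far below the other 7 libraries while KO 1, KO 2 and KO 4 lay within or just under the Flox range, and the difference of -0.50 (SE 0.26) came to -0.18 without KO 3. Leaving out KO 3 brought Rpa2 to -0.17. Without KO 1 and KO 3 together the differences were -0.04 for Rpa2 and -0.14 for Rpa3. Across the 20 settings they ran from -0.43 to -0.04 for Rpa2 and from -0.65 to -0.14 for Rpa3. The large DNA-binding subunit Rpa1 differed by 0.00042.

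Rfc4 and Rpa2 were low in KO 1 and KO 3, and Rpa3 was low in KO 3 alone. KO 1 and KO 3 are the libraries that stood apart in the whole table and had the most mitochondrial reads. The values without both are given above, and they set KO 2 and KO 4 alone against Flox. For Rfc4 and Rpa2, whose lowest KO values are KO 1 and KO 3, leaving these out shrinks the difference by construction. The part of mitochondrial reads in these results was not tested. In the whole table the differences also moved with gene span, the length from annotated start to end. Spearman's rho between span and difference was 0.30 over 13037 genes and 0.32 over the 41 members, as a description across genes. After removal of a smooth trend of span and GC content from each library it was -0.02 over the members, and the differences were -0.34 for Rfc4, -0.25 for Rpa2, -0.39 for Rpa3 and 0.22 for Pole.

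**Figure D3:**
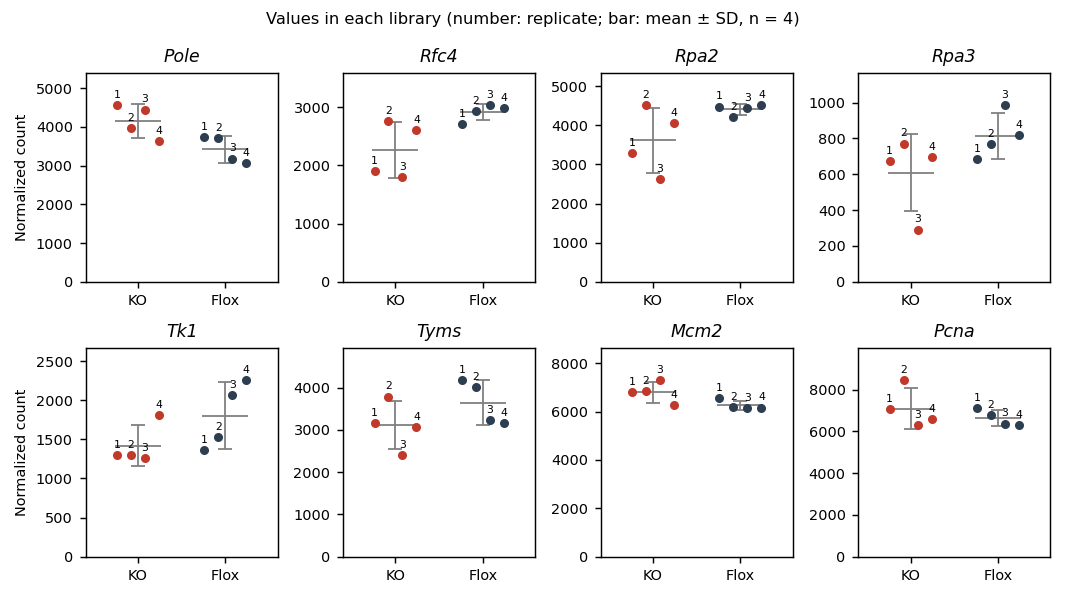
Normalized counts (y axis, from 0) of 8 members in each KO and Flox library (points, numbered by replicate), with bars for the mean ± SD (n = 4). KO 1 and KO 3 are the low points of Rfc4 and Rpa2, KO 3 alone is the low point of Rpa3, and the groups overlap in all 8 panels.

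Of the Okazaki fragment genes, Fen1 cuts the displaced primer flap and Lig1 seals the nick. Fen1 was at 5966, 6742, 4887 and 6773 normalized counts in the KO libraries (1 to 4) and at 6933, 6734, 6943 and 7295 in Flox. KO 3 and KO 1 were the lowest libraries and KO 4 and KO 2 lay near the lower Flox values, for a difference of -0.21 (SE 0.11, limma adjusted p 0.366). It was -0.11 without KO 3 and -0.05 without KO 1 and KO 3, with a range of -0.26 to -0.05 over the 20 settings. Lig1 was at 8804, 8883, 9332 and 10007 normalized counts in the KO libraries (1 to 4) and at 9866, 9233, 8718 and 8697 in Flox. KO 4 and Flox 1 were its highest libraries, and the difference was 0.02 (SE 0.08).

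The nucleotide synthesis genes had 3 of 4 negative differences and a median of -0.14. Tk1, the thymidine kinase of the salvage pathway, was at 1296, 1303, 1265 and 1813 normalized counts in the KO libraries (1 to 4) and at 1363, 1530.4, 2062 and 2258 in Flox. KO 1, KO 2 and KO 3 were close together and below all Flox libraries, KO 4 lay between Flox 2 and Flox 3, and the Flox values themselves spread from 1363 to 2258. The means were 1419 ± 263 in KO and 1803 ± 425 in Flox (SD, n = 4) and the difference was -0.33 (SE 0.17, 95% interval -0.71 to 0.04), with a limma adjusted p of 0.370. It was -0.21 without Flox 4 and -0.20 without KO 1 and KO 3, with a range of -0.46 to -0.20 over the 20 settings. The whole span of Tk1 is also covered by Gm20708 on the opposite strand, and Afmid on that strand overlaps Tk1 over 169 nt.

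Tyms, which makes thymidylate from deoxyuridylate, was at 3164, 3786, 2400.3 and 3068 normalized counts in the KO libraries (1 to 4) and at 4179, 4016, 3225 and 3163 in Flox. KO 3 was lowest and Flox 1 highest, KO 2 lay between the Flox libraries, and the difference was -0.24 (SE 0.14, limma adjusted p 0.415). It was -0.12 without KO 3 and -0.09 without KO 1 and KO 3, with a range of -0.34 to -0.09 over the 20 settings. Rrm2, the small subunit of ribonucleotide reductase, was at 8251, 8758, 6808 and 7332 normalized counts in the KO libraries (1 to 4) and at 8742, 7893, 7584 and 7789 in Flox. KO 2 and Flox 1 were level at the top and KO 3 was lowest, with a difference of -0.04 (SE 0.09). The large subunit Rrm1 differed by 0.09.

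The other genes of replication and of its control were read from 5 lists. Among their 116 tested genes no gene passed an adjusted p of 0.05 by limma or by edgeR, and 1 did by DESeq2 (Ctps2). At an unadjusted p under 0.05 (limma), 7.74% of all tested genes were higher and 7.39% lower in KO, the shares to set beside the counts that follow. Of 31 other initiation and fork genes 0 were higher and 2 lower, with a median difference of -0.01. The 2 were Gmnn (geminin, the inhibitor of Cdt1) at -0.34 and Rnaseh2a (a subunit of the nuclease that removes RNA from DNA) at -0.34. Of 12 genes of replication-coupled chromatin assembly 1 was higher, Dnmt1 (the maintenance DNA methyltransferase) at 0.29, and the median was 0.04. Of 9 checkpoint genes 1 was lower, Rad1 (a subunit of the checkpoint clamp) at -0.31, and the median was -0.04. Without KO 1 and KO 3 these differences came to -0.14 (Gmnn), -0.12 (Rnaseh2a), 0.18 (Dnmt1) and -0.18 (Rad1).

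The other nucleotide synthesis genes and the genes that control entry into S phase had medians on opposite sides of 0. Of 37 other nucleotide genes 0 were higher and 4 lower at an unadjusted p under 0.05 (7.74% and 7.39% of all tested genes), 23 of the 37 differences were negative, and the median was -0.09. The first of them by p was Ctps2, a CTP synthase, which was at 1334, 1305, 1253 and 1469 normalized counts in the KO libraries (1 to 4) and at 1754, 1824, 1864 and 1556 in Flox. All 4 KO values of Ctps2 were below all 4 Flox values. This held for 4 of the 37 genes (also Paics, Impdh2 and Prps2), against 3.79% of all tested genes. The Ctps2 difference was -0.38 (SE 0.09) with a limma adjusted p of 0.238, or -0.50 after removal of the span and GC trend. Hprt, the purine salvage enzyme, differed by -0.22, or -0.10 without KO 1 and KO 3. The 4 lower genes were Ctps2, Prps2 and Hprt, all on chromosome X like the deleted miRNAs, and Impdh2 on chromosome 9. Prps1, also on chromosome X, differed by -0.10. The part of this shared chromosome in these counts was not tested. Of 27 tested E2F and G1/S genes 5 were higher and 0 lower, 21 of the 27 differences were positive, and the median was 0.10. Cdk6, a kinase that drives cells out of G1, was at 566, 501, 559.6 and 517 normalized counts in the KO libraries (1 to 4) and at 434, 475, 322 and 352 in Flox. The KO values of Cdk6 lay wholly above the Flox values, which held for 1 of the 27 genes, against 4.18% of all tested genes. The Cdk6 difference was 0.45 (SE 0.14, limma adjusted p 0.240), or 0.32 after removal of the span and GC trend. E2f7, a repressor of the E2F family, differed by 0.45 (limma adjusted p 0.262).

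Of the genes in these 5 lists, those whose pattern over the 8 libraries was most like the members' mean log2 value were Dut (dUTPase) with r = 0.97, Tipin (a fork protection factor) with 0.93, Asf1a (a histone chaperone) with 0.90, Umps (pyrimidine synthesis) with 0.90 and Donson (a helicase assembly factor) with 0.89. The median r over the 116 genes was 0.44 and over the 13050 tested genes outside the set -0.01. Each r rests on 8 libraries that share depth and composition.

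E2F factors are known to act on such genes through short words in their promoters, and these words were counted. RefSeq promoters (GRCm38.p6, 250 bases before to 50 bases after the start) were matched by symbol for 34 of the 41 members, 40 promoters in all. No entry was matched for Mcm4, Gins1, Gins2, Gins4, Prim2, Pole and Rfc2. An E2F word was any of TTTCCCGC, TTTCGCGC, TTTGCCGC and TTTGGCGC on either strand, with overlaps allowed. Such a word stood in 14 of 40 member promoters (35.0%), against 2.26% of all 32851 promoters and 3.97% of the 12169 promoters of tested genes. By role it was found in 5 of 8 helicase genes with a promoter, 3 of 5 licensing genes and 3 of 4 polymerase delta and epsilon genes, and in 0 of 3 RPA genes and 0 of 4 nucleotide synthesis genes. These 4 windows from Mcm6, Mcm5 and Pola1 lie upstream of the gene start in the RNA table as well as in RefSeq and show the words, or in Pola1 the reverse complement of TTTGGCGC, in capitals, read along the gene's strand. The distance is that of the word from the RefSeq start.
Mcm6, 110 bases before the start, chr1:128359797-128359826, minus strand: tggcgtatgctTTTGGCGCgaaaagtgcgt
Mcm6, 47 bases before the start, chr1:128359734-128359763, minus strand: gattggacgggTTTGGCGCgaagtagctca
Mcm5, 153 bases before the start, chr8:75109345-75109374, plus strand: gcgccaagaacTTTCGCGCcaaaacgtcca
Pola1, 138 bases before the start, chrX:93632275-93632304, minus strand: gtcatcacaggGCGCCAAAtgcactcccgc

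In the first Mcm6 window and in the Mcm5 window a second word overlaps the capitals on the other strand. The 14 members with a word had a median RNA difference of 0.0048 and a range of -0.18 to 0.14, and the 20 without had a median of -0.01 and a range of -0.50 to 0.16. Other motifs were searched in the same windows on both strands. CCAAT stood in 60.0% of member promoters against 37.9% for tested genes, and the GC box GGGCGG in 67.5% against 62.5%. TTTGAA, the core of the element bound in genes of late cell cycle, stood in 12.5% of member promoters against 17.9% of all promoters, near the share for tested genes. A match of letters is a description and does not show binding.

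**Figure D4:**
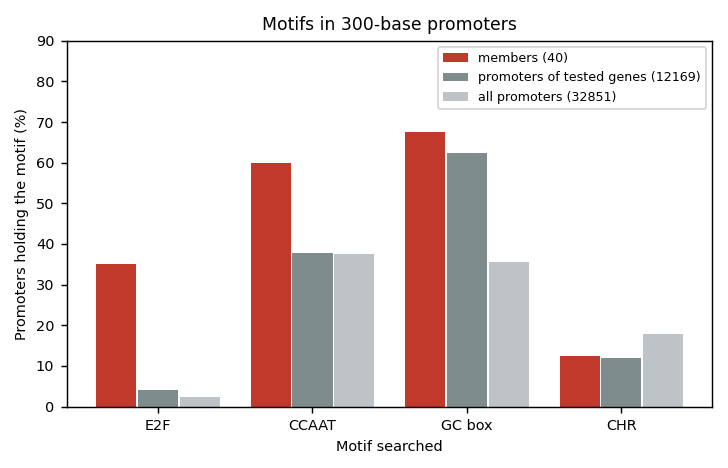
Share of 300-base promoters (y axis, percent) that hold an E2F word, CCAAT, the GC box or the CHR core TTTGAA (x axis), for 40 member promoters, 12169 promoters of tested genes and all 32851 promoters. The E2F bar of the members reaches 35.0% while those of the other sets stay under 4%.

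Ago2 HITS-CLIP sequences RNA fragments crosslinked to Ago2, the partner protein through which miRNAs act on RNA. The deposited comparison pools the 4 replicates of each genotype and gives each 5-nt bin a difference score and a state, and each run of bins of 1 state a region score. Regions of state 1 have a score of 0 and differ little between the conditions. In the members' bins, the difference was negative in 99.9% of state 0 bins and in 0.57% of state 2 bins. The conditions are not named by genotype, so states 0 and 2 are opposite directions and neither can be called KO. Pooling leaves no spread between samples, and no test was made.

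Every member carried at least 1 region on its own strand (41 of 41, against 85.9% of 13037 tested genes with a span and 99.0% of the 6864 within the members' range of mean RNA level), from 7 regions in Gins3, Gins4 and Pola2 to 542 in Prim2. A region with a score of at least 5 was found in 29 of the 41 (70.7%), against 61.3% of all tested genes and 82.2% of those within that range. At a score of at least 2 it was 41 members, against 77.2% of all tested genes and 95.2% of those in that range. At 10 it was 23 members (56.1%), against 39.9% and 58.8%. The 12 members without a region of score 5 were Orc1, Orc2, Mcm10, Gins1, Gins3, Gins4, Pola2, Prim1, Pold1, Pole, Rfc5 and Tyms, so Pole, which had the largest positive RNA difference, had no region above 3.1.

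The members had 2353 regions in all, of which 35.0% were of state 0, 59.1% of state 1 and 5.91% of state 2, beside 31.2%, 59.0% and 9.81% over all tested genes. Of these, 164 (6.97%) reached a score of 5, beside 10.6%. They split into 78 of state 0 and 86 of state 2, a state 2 share of 52.4% beside 69.8% over all tested genes. Prim2 alone, a gene of 216 kb, held 22 of the 86. Within 1000 nt of the annotated 3′ end of the gene lay 43 of the 164 (26.2%), beside 16.6%. Of all regions, whatever their score, 11.4% of the members' were that close, beside 7.93% over all tested genes. In 20 of the 41 members the region with the highest score was within that distance, a count made for the members only, with no share over all tested genes beside it. The files do not separate exons from introns or UTRs.

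**Figure D5:**
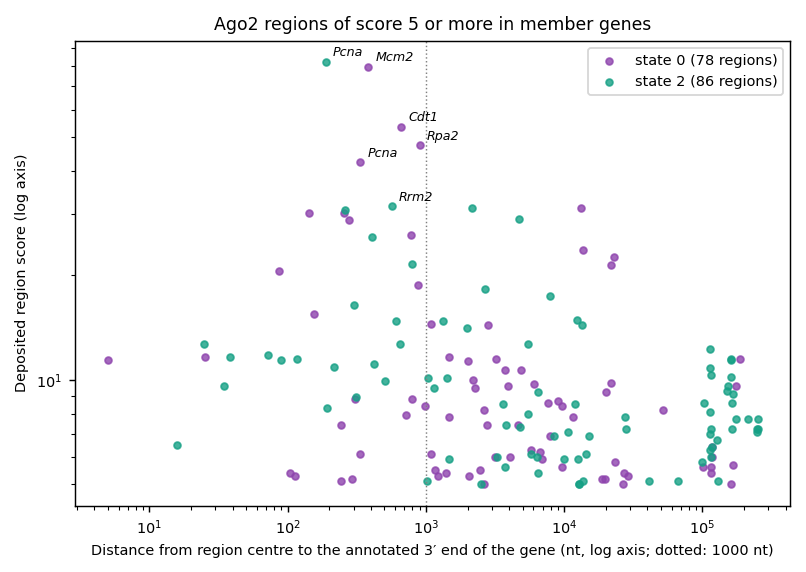
Deposited score (y axis, log scale) of the 164 member regions with a score of 5 or more against the distance from the region's centre to the annotated 3′ end of the gene (x axis, nt, log scale), coloured by state. The 4 highest scores, in Pcna, Mcm2, Cdt1 and Rpa2, all lie within 1000 nt of the 3′ end (dotted line).

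The highest score of the set was in Pcna. Its region at chr2:132249331-132249370 (GRCm38, minus strand, 40 nt) had a score of 82.3, state 2 and a mean difference of 0.25, with its centre 188.5 nt from the 3′ end. A second Pcna region at chr2:132249461-132249535 had a score of 42.4 and state 0, so both directions occurred close to the same 3′ end. Mcm2 had a region of state 0 with a score of 79.8 at chr6:88883836-88883875, 381.5 nt from its 3′ end, and a neighbour of state 2 with a score of 30.8 at chr6:88883721-88883745. The next were Cdt1 (53.6, state 0, chr8:122572861-122572920) and Rpa2 (47.4, state 0, chr4:132777831-132777865), 663.5 and 904 nt from their 3′ ends.

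The reductase genes followed. Rrm2 had a score of 31.6 (state 2) at chr12:24713556-24713605, 565.5 nt from its 3′ end, and Rrm1 a score of 31.3 (state 0) at chr7:102456461-102456505, 13288 nt from its 3′ end. Each held 13 regions of score 5 or more, of which 8 in Rrm2 and 10 in Rrm1 were of state 0. None of these 6 genes passed the RNA test, and 4 of their RNA differences were within 0.10 of 0: 0.09 (Pcna), -0.03 (Cdt1), -0.04 (Rrm2) and 0.09 (Rrm1). Those of Mcm2 and Rpa2 were 0.12 and -0.31. The Cdt1 regions lie in Gm20388 as well.

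Mcm7 carries miRNA genes of its own inside its introns, the cluster of Mir25, Mir93 and Mir106b, so Ago2 regions there can come from these miRNAs. A region of score 5.1 and state 2 at chr5:138165596-138165620 overlapped the Mir93 hairpin and shared 1 base with miR-93-5p. The region at the Mir106b hairpin had state 1 and a score of 0, and none overlapped Mir25. The top region of Mcm7, with a score of 11.4 and state 2, lay 90 nt from the 3′ end and outside the cluster. The mature strands are shown with the seed in capitals because miR-93-5p and miR-106b-5p share it, and neither it nor that of miR-25-3p is the seed of miR-221 and miR-222.
miR-93-5p: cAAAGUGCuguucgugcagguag
miR-106b-5p: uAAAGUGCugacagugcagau
miR-25-3p: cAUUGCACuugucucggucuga

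Pold1 hosts Mir7053, and no Ago2 region overlapped its hairpin. In all, 15 members share part of their span with a gene on the opposite strand, 11 of them with a protein-coding gene. If strand was not used, the RNA counts of these members depend on how reads in the shared part were assigned, which is not given. The CLIP regions above were counted on the member's own strand, and another 169 regions lay on the opposite strand of members' spans, 70 of them in Tk1.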

How the data were processed

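RNA-seq values are the authors' deposited signal: gene counts divided by 1 size factor per library and rounded to 1 decimal, so that at least 99.986% of values were whole reads within 0.1. The authors' deposited log2 fold changes, p-values with FDR, and gene GC content in percent were used as given, per the file headers. Per the submitters' processing notes, cutadapt, Bowtie2, SAMtools, STAR, DESeq2 and DESeq were used, with mm9 named as the build; their roles and versions, and strand use in counting, are not given in the sources used here. Positions in the files fit GRCm38: all 41 members overlap their RefSeq GRCm38.p6 span, and 33 start within 1000 nt of it. The deposited dCLIP output holds a difference score and a state per 5-nt bin and a score per region, per the file headers and the region file; the columns are pooled per condition, and 4 columns of tags and mutations were not used because the conditions are not named. Regions were assigned to each gene whose span they overlapped on the same strand, and the states of all 2353 member regions matched their bins.

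The main test was limma-trend (limma 3.58.1, R 4.3.3) on log2(normalized count + 1), for the 13091 genes with a mean of at least 10, genotype only, two-sided, Benjamini-Hochberg threshold 0.05. As a check of the code, it was run on simulated counts with known changes and the same dispersion in every library. Those counts hold no libraries that stand apart and no span trend, so the run does not show how the test performs under them. Alternatives were TMM scaling, no filter, a mean of at least 50, a pseudocount of 10, edgeR 4.0.16 and DESeq2 1.42.0 on recovered reads, the replicate number as a block, natural splines with 4 degrees of freedom for gene span and GC content, both together, library weights, each library left out in turn, KO 1 and KO 3 left out together, and for CLIP score limits of 2 and 10, a width of at least 20 nt and spans extended by 1000 nt. Genes given in every library are the 2 with the smallest p in each of 8 roles, plus Pcna, Mcm2, Mcm7, Tyms and Rrm2; up to 2 genes per direction come from each pathway list, and CLIP regions from the 6 members with the highest score. The members and lists were chosen with earlier results of these data known. Sequences are from RefSeq.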

Additional observations from a re-analysis of the deposited data

Results flagged for a closer look

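In 3 of 82 groups of 4 libraries (3.66%, where chance gives about 1 in 20) a single library stood apart from the other 3 of its group by more than Dixon's 95% limit. Mcm2 in Flox 1 was at 6542.5 normalized counts, with the next Flox library at 6182. Pola2 in Flox 1 was at 3353.1, with the next at 2724.3. Tk1 in KO 4 was at 1812.9, with the next KO library at 1302.8, so the KO mean of Tk1 lies above 3 of its 4 values.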

How the results depend on the processing

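Members past an adjusted p of 0.05 (limma, edgeR or DESeq2) numbered 0 under all 19 alternatives for RNA, where the lowest adjusted p of a member was 0.139. The count of all genes called, 9, became 213 with DESeq2, 16 with library weights and 8 to 17 with 1 library left out. The 2 members at an unadjusted p under 0.05 (against 15.1% of all genes) became 4 with the span and GC correction (15.8%), 5 with library weights (18.0%), 0 without KO 1 and KO 3 (6.26%), and 0 to 8 with 1 library left out (7.66% to 21.1%, with 8 members and 21.1% without KO 2). The replicate block gave 5 members (Pole, Rfc4, Rpa2, Tyms and Tk1), against 14.2% of all genes, and 6 together with the span and GC correction (15.6%). Over all tested genes, the correlation of same-numbered KO and Flox deviations from their group means was -0.09, -0.06, -0.05 and 0.0027. This shows no pairing by replicate number over the genes as a whole and cannot exclude it for single genes. Of 779 member differences under alternatives 701 kept their sign and 78 turned, in 20 members, none of them called and each within 0.22 of 0 in the main test. The cause was not tested. With TMM scaling the turned log2 values were Cdc45 -0.0056, Rfc5 -0.011 and Rpa1 -0.011. Rfc5 turned to -0.00011 with edgeR and -0.0035 with DESeq2. With the span and GC correction, with or without the block, they were Cdt1 0.11, Mcm3 0.025, Cdc45 -0.0063, Pola1 -0.065, Prim1 0.022, Prim2 -0.068, Rfc1 -0.044, Rpa1 -0.052 and Rrm2 0.046. With library weights they were Orc1 0.072, Orc2 0.028, Mcm3 0.033, Prim1 0.024 and Prim2 -0.0062. Without KO 1 and KO 3 they were Orc1 0.029, Orc2 0.094, Orc6 0.023, Cdt1 0.021, Mcm3 0.043, Cdc45 -0.0047, Gins1 0.017, Prim1 0.054, Prim2 -0.036, Pole2 0.042, Rfc2 0.016 and Rrm2 0.0042. With 1 library left out the ranges that crossed 0 were Cdc45 -0.023 to 0.051, Cdc6 -0.038 to 0.11, Cdt1 -0.075 to 0.044, Lig1 -0.018 to 0.058, Mcm3 -0.032 to 0.0198, Mcm4 -0.013 to 0.081, Orc1 -0.089 to 0.075, Orc2 -0.16 to 0.097, Pcna -0.0011 to 0.14, Prim1 -0.078 to 0.036, Prim2 -0.0064 to 0.12, Rfc1 -0.015 to 0.096, Rfc5 -0.035 to 0.064, Rpa1 -0.046 to 0.053 and Rrm2 -0.10 to 0.018. The 29 members with a CLIP region of score 5 stayed 29 with a width of at least 20 nt and with spans extended by 1000 nt. Each member had at least 252 reads in each library, and the intervals rest on 4 libraries per genotype.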
